A study of Arabidopsis thaliana with 4 samples.

Results

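The 9 abscisic acid (ABA) receptor genes PYR1 (AT4G17870), PYL1 (AT5G46790), PYL2 (AT2G26040), PYL4 (AT2G38310), PYL5 (AT5G05440), PYL6 (AT2G40330), PYL7 (AT4G01026), PYL8 (AT5G53160) and PYL9 (AT1G01360) of Arabidopsis thaliana were followed in plants that overexpress a cowpea DREB2 factor. The members were selected by locus: a probe belonged to the group when its array name, without the transcript suffix, was one of the listed loci. All 9 loci were found, with 13 probes in all, and all 9 were among the 22442 features tested on the arrays. Each of them was well above background in both channels of all 4 arrays, so that no member entered through 1 line alone.

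The study compared 2 transgenic lines with wild type Col-0. The truncated line carried a shortened VuDREB2A under the 35S promoter, a viral promoter active in most tissues, and the full-length line carried the complete VuDREB2A under the same promoter. Both lines are in the Col-0 background, and wild type Col-0 without a transgene was the partner of each line on the array. Whole plants were harvested at 21 days, without any treatment, from vertical agar plates with 1% sucrose at 25 °C and 12 h of light per day. As far as the labels state, 1 line stands for each construct, so effects of the construct and of that line cannot be told apart. How many plants were pooled is not given in the sources used here.

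Each line was measured on 2 arrays with 2 colours. The line was labelled with Cy3 on replicate 1 and with Cy5 on replicate 2, so replicate number and dye orientation are the same division of the arrays. The design text counts 2 wild type replicates, and the same wild type RNA may therefore have been paired with both lines. On each array 43603 gene probes were read, none of their spots was saturated (0 on every array), and the share of probes well above background ranged from 65.6% to 72.5% over the channels. No probe carries the name of the cowpea transgene, and its level was not analysed here. The number of arrays, 2 for each line, limits the precision of every value. In whole plants a smaller share of one cell type and less RNA per cell cannot be told apart.

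PYR1 and the PYR1-like (PYL) proteins are soluble receptors that bind ABA in a pocket closed by mobile gate and latch loops. The closed receptor docks onto clade A protein phosphatases of type 2C and blocks them, which releases SnRK2 kinases to phosphorylate bZIP factors of ABA-responsive genes. ABA itself is known to lower the transcripts of several receptor genes and to raise those of the phosphatases. DREB2 factors act beside this route, through the dehydration-responsive element rather than through the ABA receptor.

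All values below are log2 ratios of line over wild type unless another scale is named, where 0 means equal signal. A gene was called when its limma adjusted p (Benjamini-Hochberg over all 22442 features) was under 0.05. In the truncated line 3 of the 9 receptor genes fell and 0 rose, and 6 were not called. Of all features 13.2% were called in that line, 7.09% as higher and 6.15% as lower. In the full-length line 1 receptor gene rose, 1 fell and 7 were not called, against a background of 15.5% (9.41% higher and 6.13% lower). At an unadjusted limma p under 0.05 there were 4 for the truncated line, 2 for the full-length line and 3 for their difference, against 30.9%, 33.3% and 20.5% of all features. The median over the 9 genes was -0.10 in the truncated line and 0.08 in the full-length line, where the medians over all features were 0.00 and 0.01. The log2 ratio was below 0 for 9 of 9 members in the truncated line and for 3 of 9 in the full-length line, most of them without a call. With median centring in place of loess, 9 of 9 lay below 0 in the truncated line (median -0.22) and 8 of 9 in the full-length line (median -0.08), so the opposite sign of the line medians depends on the scaling. Without full-length replicate 1 the full-length median was -0.01, with 5 of 9 below 0. All 5 calls kept their sign under every alternative processing. They were lost with centring in place of loess (limma adjusted p from 0.886 to 1) or without the filter on dim probes (from 0.0591 to 0.135). Other settings took some of them. With outlier spots kept, PYL6 was lost in both lines (0.0654 truncated, 0.11 full-length) and PYL9 in the full-length line (0.131). The scanner software's own log ratios lost PYL5 and PYL8 in the truncated line (0.059 and 0.0501) and PYL9 (0.0679). A background offset of 10 in place of 50 lost PYL5 and PYL6 in the truncated line (0.0563 and 0.0503) and PYL9 (0.0622).

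**Figure D1:**
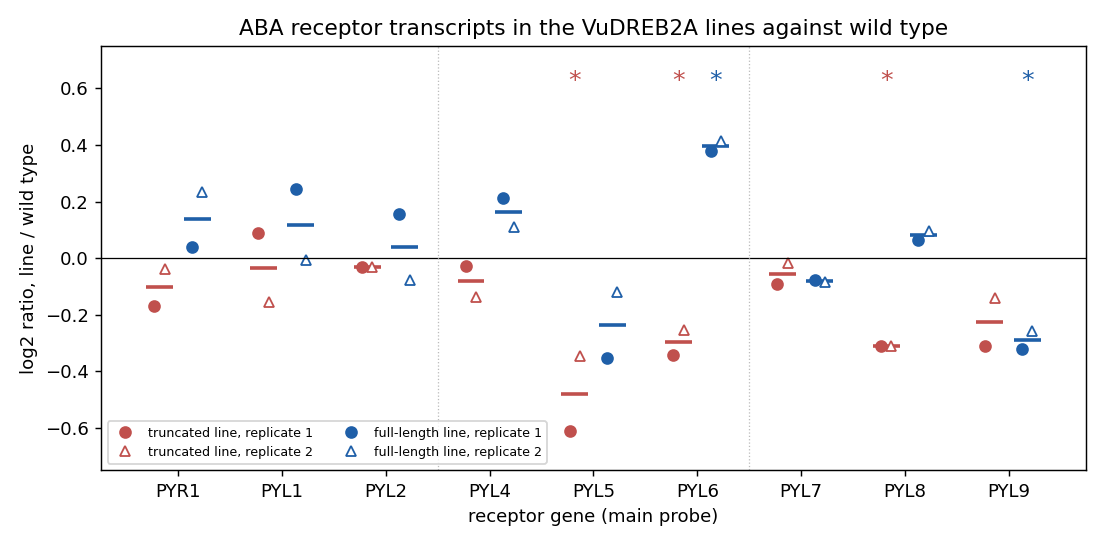
Log2 ratio of line over wild type (y axis) for the main probe of each of the 9 receptor genes (x axis), with the truncated line left of the full-length line. Filled circles are replicate 1, open triangles replicate 2, bars the mean of 2 arrays, and an asterisk in the colour of a line marks an adjusted p under 0.05; PYL6 lies at -0.30 in the truncated line and at 0.40 in the full-length line.

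PYR1, PYL1 and PYL2 belong to the branch of receptors that form homodimers without the hormone. PYR1, the receptor through which the synthetic agonist pyrabactin was traced, had log2 ratios of -0.17 and -0.04 in the truncated line and 0.04 and 0.23 in the full-length line. The arrays of the lines did not overlap, but neither mean was called (-0.10 ± 0.09, SD, n = 2, limma adjusted p = 0.41, and 0.14 ± 0.14, adjusted p = 0.272). Its 95% intervals of -0.29 to 0.09 in the truncated line and -0.05 to 0.33 in the full-length line bound the change that these arrays allow.

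PYL1 had 0.09 and -0.16 in the truncated line and 0.25 and -0.01 in the full-length line. In both lines the replicate 1 array was the higher one, and the groups overlapped. Its means were -0.03 ± 0.17 in the truncated line and 0.12 ± 0.18 in the full-length line (limma adjusted p = 0.845 and 0.443), with 95% intervals of -0.28 to 0.21 and -0.12 to 0.36.

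PYL2, known for its part in closing stomata, had -0.03 and -0.03 in the truncated line and 0.15 and -0.08 in the full-length line. The means were -0.03 ± 0.00 and 0.04 ± 0.16 (limma adjusted p = 0.815 and 0.76), with 95% intervals of -0.22 to 0.16 in the truncated line and -0.15 to 0.23 in the full-length line. Thus 0 of these 3 dimeric receptors was called in either line.

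PYL4, PYL5 and PYL6 form a second branch, whose members are mainly monomers. PYL4, a receptor gene that also responds to jasmonate, had -0.03 and -0.14 in the truncated line and 0.21 and 0.11 in the full-length line. The arrays of the lines did not overlap. Its means of -0.08 ± 0.08 and 0.16 ± 0.07 were not called (limma adjusted p = 0.443 and 0.152), and the 95% intervals ran from -0.25 to 0.08 and from -0.00 to 0.33.

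PYL5, a receptor whose overexpression is known to heighten ABA responses, fell in the truncated line. Its log2 ratios were -0.61 and -0.35 in the truncated line and -0.35 and -0.12 in the full-length line, so that all 4 arrays read below wild type and the lines overlapped at -0.35. The mean in the truncated line was -0.48 ± 0.19 (SD, n = 2), 1.39-fold lower than wild type (limma adjusted p = 0.0373). Of all features 4.70% had a log2 ratio at least as far from 0 in that line. In the full-length line the mean of -0.24 ± 0.17 was not called (adjusted p = 0.158; 95% interval -0.48 to 0.01). Without truncated replicate 1 the call in the truncated line was lost (-0.35, adjusted p = 0.146), and without truncated replicate 2 it was kept (-0.61, adjusted p = 0.0119).

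PYL5 was read by 3 probes, and the value above is that of the brightest. The next probe gave -0.55 and -0.54 in the truncated line and -0.42 and -0.47 in the full-length line, and the dimmest gave -0.33 and -0.42 in the truncated line and -0.18 and -0.43 in the full-length line. All 3 probes thus lay below wild type on all 4 arrays. In a fit that tested each of 29947 probes by itself, added after the data had been seen, the truncated line was called at all 3 probes (limma adjusted p = 0.0377, 0.00907 and 0.0452). The full-length line was called at the second probe (adjusted p = 0.0109) but not at the brightest (0.154) or the dimmest (0.0626). Averaging the 3 probes gave -0.33 in the full-length line, which was called (adjusted p = 0.019), so the call in that line depends on the probe.

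PYL6, a receptor reported to bind the jasmonate factor MYC2, went opposite ways in the lines. It had -0.34 and -0.25 in the truncated line and 0.38 and 0.41 in the full-length line, a gap far wider than the spread within either line. PYL6 fell 1.23-fold in the truncated line (-0.30 ± 0.06, SD, n = 2; limma adjusted p = 0.0369) and rose 1.32-fold in the full-length line (0.40 ± 0.02; adjusted p = 0.0166). Each of these calls was lost when 1 array of its line was left out, at -0.25 (adjusted p = 0.265) and -0.34 (0.113) without truncated replicate 1 and 2, and at 0.41 (0.0586) and 0.38 (0.0799) without full-length replicate 1 and 2. With centring in place of loess the full-length value was 0.26 (limma adjusted p = 0.889). With outlier spots kept neither call held, at -0.30 in the truncated line (limma adjusted p = 0.0654) and 0.30 in the full-length line (0.11). One probe read this gene.

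PYL7, PYL8 and PYL9 form the third branch, also mainly monomers. PYL7 had -0.09 and -0.02 in the truncated line and -0.08 and -0.08 in the full-length line, and was called in neither (means -0.06 ± 0.05 and -0.08 ± 0.00; limma adjusted p = 0.567 and 0.389). Its 95% intervals were -0.20 to 0.09 and -0.23 to 0.07. A dimmer probe gave -0.07 and -0.11 in the truncated line and -0.32 and -0.15 in the full-length line, with no call in the fit of single probes (adjusted p = 0.447 and 0.0757).

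PYL8, a receptor that supports root growth under ABA, fell in the truncated line. It had -0.31 and -0.31 there, against 0.07 and 0.09 in the full-length line, with no overlap. The mean in the truncated line was -0.31 ± 0.00 (SD, n = 2), 1.24-fold below wild type (limma adjusted p = 0.0291). The full-length mean of 0.08 ± 0.02 was not called (adjusted p = 0.374; 95% interval -0.06 to 0.22). Without either truncated array the value stayed at -0.31 but was not called (adjusted p = 0.166 without replicate 1 and 0.148 without replicate 2).

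PYL9, whose overexpression is known to promote drought survival and leaf senescence, was below wild type on all 4 arrays. It had -0.31 and -0.14 in the truncated line and -0.32 and -0.26 in the full-length line, and the lines overlapped. The full-length mean was called (-0.29 ± 0.05, SD, n = 2; 1.22-fold lower; limma adjusted p = 0.048), while the truncated mean was not (-0.23 ± 0.12, adjusted p = 0.0931; 95% interval -0.40 to -0.05). A dimmer probe gave -0.28 and -0.23 in the truncated line and -0.52 and -0.33 in the full-length line (fit of single probes, adjusted p = 0.0745 and 0.0191). The call in the full-length line was lost without either array of that line (-0.26, adjusted p = 0.259 without replicate 1, and -0.32, adjusted p = 0.143 without replicate 2).

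**Figure D2:**
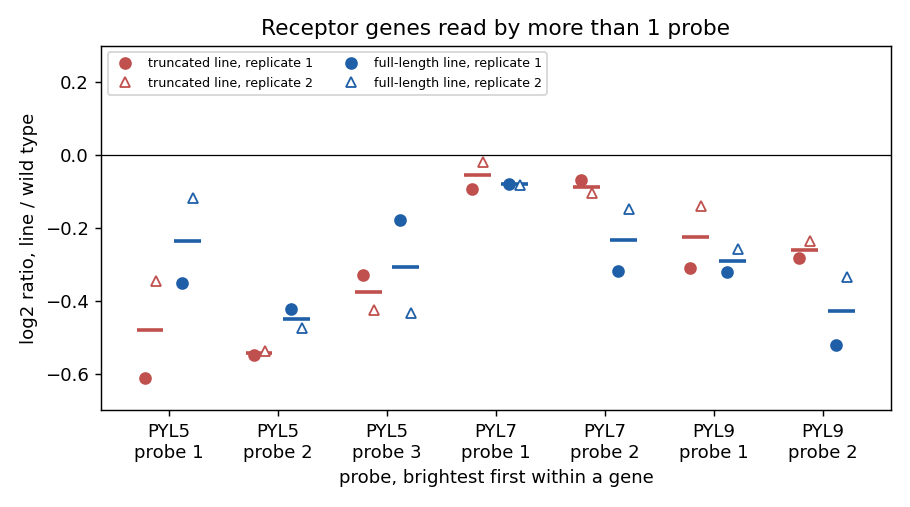
Log2 ratio of line over wild type (y axis) for each probe of the 3 receptor genes with more than 1 probe (x axis, brightest probe first). Filled circles are replicate 1, open triangles replicate 2 and bars the mean of 2 arrays, with the truncated line left of the full-length line; all 7 probes have means below 0 in both lines.

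In all, 3 members (PYL5, PYL7 and PYL9) were below wild type on all 4 arrays and 0 were above it on all 4, where 18.1% and 20.8% of all features were.

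The levels behind these ratios were followed as normalized log2 channel intensities, which carry each probe's own brightness and are compared within a probe only. PYL6 had 9.28 and 9.30 in the truncated line, 9.94 and 10.08 in the full-length line, and 9.55 to 9.66 over the 4 wild type channels. The order was full-length, wild type, truncated, with no overlap between neighbours. For PYL8 the truncated line (9.87 and 9.83) lay under all wild type channels (10.05 to 10.18), whereas the full-length line (10.12 and 10.24) overlapped them.

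PYL5 had 11.14 and 11.20 in the truncated line and 11.38 and 11.60 in the full-length line, against 11.55 to 11.76 in wild type. At this brightest probe the full-length line overlapped wild type and the truncated line did not. At the other PYL5 probes both lines lay below every wild type channel. The full-length line was at 9.70 and 9.68 at the next probe, where the lowest wild type channel was at 10.08. It was at 8.16 and 8.07 at the dimmest probe, where the lowest wild type channel was at 8.34. PYL9 was at 9.39 and 9.45 in the truncated line and at 9.34 and 9.41 in the full-length line, and both were below the wild type range of 9.59 to 9.70 while overlapping each other. For PYL4 the full-length arrays (11.61 and 11.63) stood just above wild type (11.39 to 11.59), and the truncated arrays (11.48 and 11.45) stood within it.

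PYR1 had 13.43 and 13.50 in the truncated line and 13.39 and 13.79 in the full-length line, around a wild type range of 13.35 to 13.60. PYL1 had 10.21 and 9.997 in the truncated line, 10.33 and 10.14 in the full-length line and 10.08 to 10.15 in wild type. PYL2 had 8.59 and 8.55, 8.78 and 8.55, and 8.58 to 8.63 in the same groups, and PYL7 had 9.33 and 9.33, 9.22 and 9.13, and 9.21 to 9.42. For these 4 genes each line overlapped the wild type range or lay on both sides of it.

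**Figure D3:**
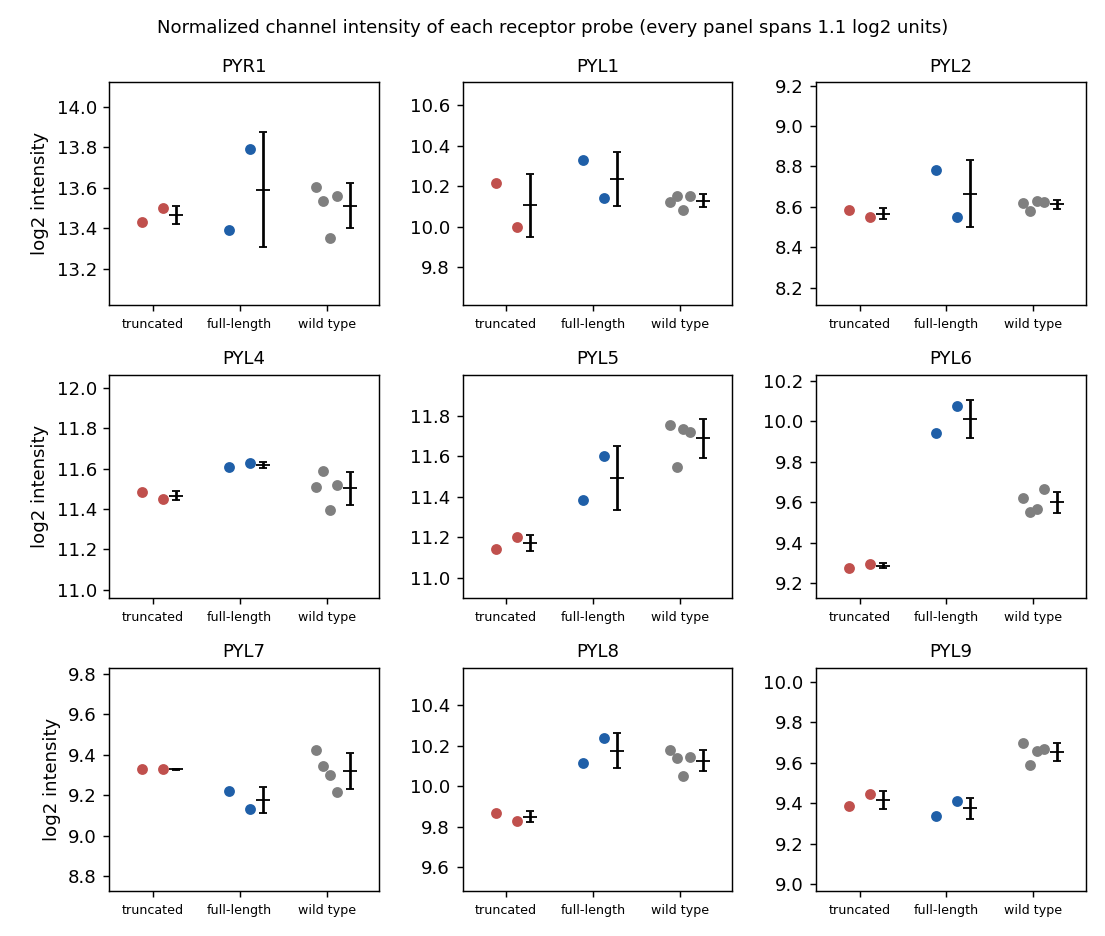
Normalized log2 channel intensity (y axis) of each receptor gene's main probe in the truncated line (2 arrays), the full-length line (2 arrays) and wild type (4 channels), with the mean and SD in black beside the points. Every panel spans the same range of log2 units; PYL6 separates into 3 levels, and PYL5 and PYL8 are lowest in the truncated line.

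A direct contrast, truncated minus full-length, shows which receptor genes differed between the 2 lines. PYL6 was lower in the truncated line by a difference of log2 ratios of -0.69 (SE 0.08; 95% interval -0.90 to -0.48; limma adjusted p = 0.0267), a 1.62-fold difference. Only 2.12% of all features differed at least as much. It was the 1 receptor gene called in this contrast, in which 3.11% of all features were called (0.971% as higher and 2.14% as lower). The call held without each of the 4 arrays in turn (-0.74 to -0.65, adjusted p from 0.0133 to 0.0301). It was lost with the scanner software's own log ratios (-0.79, adjusted p = 0.0539), with outlier spots kept (-0.59, 0.0738), without the filter on dim probes (-0.69, 0.104) and with centring in place of loess (-0.58, 1). The difference was -0.72 between the replicate 1 arrays and -0.67 between the replicate 2 arrays, which share dye orientation.

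PYL8 came next, at -0.39 (95% interval -0.59 to -0.19), and did not pass after adjustment (limma adjusted p = 0.0723). Within replicates it was -0.37 and -0.40. PYR1 differed by -0.24 (-0.51 to 0.03), PYL4 by -0.24 (-0.48 to -0.01) and PYL5 by -0.24 (-0.59 to 0.10), with limma adjusted p = 0.29, 0.224 and 0.392. Within replicates these differences were -0.21 and -0.27 for PYR1, -0.24 and -0.25 for PYL4, and -0.26 and -0.23 for PYL5. The PYL5 values are those of its brightest probe. Its next probe differed by -0.09 and its dimmest by -0.07 (fit of single probes, limma adjusted p = 0.584 and 0.792).

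PYL1 differed by -0.15 (-0.49 to 0.19) and PYL2 by -0.07 (-0.34 to 0.20), neither of them called (limma adjusted p = 0.594 and 0.772). PYL7 differed by 0.03 (-0.18 to 0.23) and PYL9 by 0.06 (-0.18 to 0.31), also without a call (adjusted p = 0.902 and 0.77). Within replicates 1 and 2 these were -0.16 and -0.15 for PYL1, -0.19 and 0.04 for PYL2, -0.02 and 0.07 for PYL7, and 0.01 and 0.12 for PYL9. For 4 of 9 members (PYR1, PYL4, PYL6 and PYL8) both truncated arrays lay below both full-length arrays, as for 25.8% of all features, and for 0 of 9 above, as for 23.9%. Within both replicate numbers 6 of 9 members were lower in the truncated line, as were 40.8% of all features. The lines may share wild type RNA, so their ratios are not independent.

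**Figure D4:**
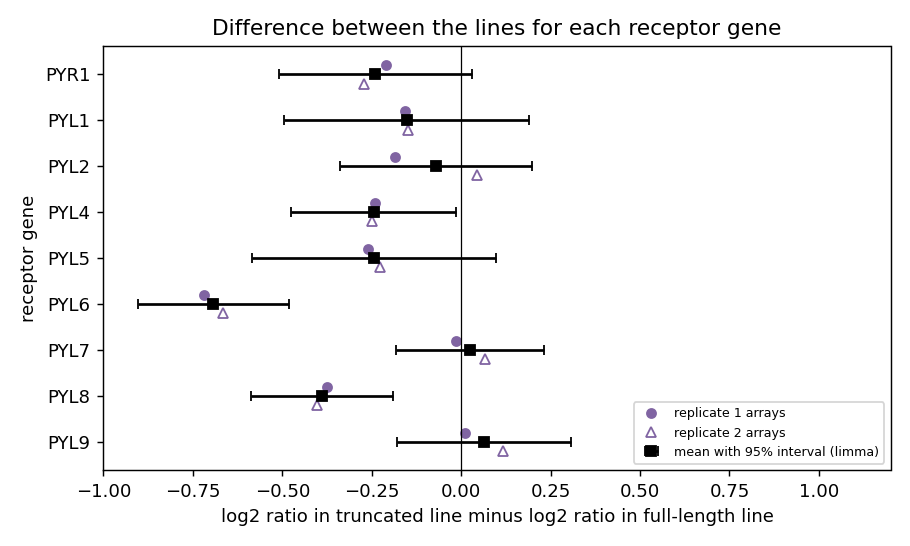
Difference of log2 ratios, truncated minus full-length line (x axis), for each receptor gene (y axis). Squares with bars are the limma estimate with its 95% interval, filled circles the replicate 1 arrays and open triangles the replicate 2 arrays; PYL6 at -0.69 lies farthest from 0.

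The family holds 5 further receptor genes that the list of members left out. PYL3, a dimeric receptor, was the 1 of them that passed the filter on dim probes. Its signal was low, well above background in 3 of 4 line channels and 2 of 4 wild type channels. The mean log2 intensity of PYL3 was 6.73, near the 6.10 to 6.38 of PYL10 to PYL13. It is therefore a weak reading. It had -0.08 and -0.02 in the truncated line and -0.06 and 0.10 in the full-length line (limma adjusted p = 0.659 and 0.843). PYL10, PYL11, PYL12 and PYL13 were well above background in 0 channels of any array and were not tested.

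Outside the family, the tested genes with a symbol whose 4 log2 ratios were most like those of a called receptor gene were named as a description. The measure was the root mean square difference over the 4 arrays, among 8774 genes. CYP705A15, a cytochrome P450 gene, was nearest to PYL6 (0.04), followed by PUT1, a polyamine transporter gene (0.05). TBL38 (0.02) was nearest to PYL8. NAC046, a NAC factor gene (0.06), and AHL19 (0.06) were nearest to PYL5, and U2AF35B, a splicing factor gene (0.03), and PROPEP6 (0.04) to PYL9. Within 0.1 there were 15 such genes for PYL6, 17 for PYL5, 115 for PYL8 and 189 for PYL9, so that likeness to the last 2 is common.

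Next in the pathway stand the phosphatases that the receptors inhibit. Of the calls named below for pathway and marker genes, 30 were recomputed under the alternatives (all but that of COR15A in the truncated line), and all 30 were lost with median centring in place of loess. Of these 30, 15 were lost with outlier spots kept and 20 without the filter on dim probes. Of the 9 clade A genes 6 were tested, and AHG1, HAI2 and HAI3 were too dim. In the truncated line 0 of 6 were called by limma (1 at an unadjusted p under 0.05), with a median of 0.07. In the full-length line 1 rose, HAB1 (0.35 and 0.28; mean 0.31 ± 0.05, limma adjusted p = 0.0268), and the median was 0.06. These counts stand beside 13.2% of all features called in the truncated line and 15.5% in the full-length line. At an unadjusted limma p under 0.05 the shares were 30.9% and 33.3%. The same shares apply to the pathway and marker lists below. With outlier spots kept HAB1 was at 0.20 (adjusted p = 0.182). The HAB1 call was lost without either full-length array (0.28, adjusted p = 0.204, and 0.35, adjusted p = 0.105). ABI1 had 0.05 in the truncated line and 0.10 in the full-length line, ABI2 had 0.09 and 0.03, and none of these was called.

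In the SnRK2 kinase family 2 of the 10 genes fell in the truncated line and 0 rose, where 6.15% of all features were called as lower. Their median was -0.16, and 4 had an unadjusted limma p under 0.05, as had 30.9% of all features. The 2 called were SNRK2.2, one of the main ABA kinases (-0.29 ± 0.03, limma adjusted p = 0.0411), and SNRK2.7 (-0.27 ± 0.00, adjusted p = 0.0387). Both calls were lost without either truncated array (SNRK2.2 at -0.27 and -0.30, SNRK2.7 at -0.27 and -0.27; adjusted p from 0.16 to 0.241). In the full-length line 0 of 10 were called (3 at an unadjusted p under 0.05; median -0.01), SNRK2.2 being at -0.14 there. SNRK2.6, the guard cell kinase OST1, had 0.11 in the truncated line and 0.11 in the full-length line.

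Of the 4 tested bZIP factor genes (ABI5 was too dim), ABF3 was the 1 that rose in each line. Its mean was 0.27 ± 0.07 in the truncated line (limma adjusted p = 0.0458) and 0.56 ± 0.03 in the full-length line (adjusted p = 0.00791). The call in the truncated line was lost without either of its arrays (0.22, adjusted p = 0.338, and 0.32, adjusted p = 0.131), and that in the full-length line was kept. With centring the full-length value was 0.37 (adjusted p = 0.886). The difference between the lines was not called (-0.29, adjusted p = 0.149).

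Genes that set the ABA level were also read. Of 5 tested synthesis genes 2 rose in each line, with medians of 0.11 in the truncated and 0.13 in the full-length line. AAO3, the aldehyde oxidase of the last step, had 0.28 ± 0.08 in the truncated line and 0.51 ± 0.05 in the full-length line (limma adjusted p = 0.0476 and 0.0106). ABA3, which makes the cofactor of that oxidase, had 0.35 ± 0.07 and 0.32 ± 0.00 (adjusted p = 0.0267 and 0.0281). Apart from AAO3 in the full-length line, these calls were lost without either array of the line (adjusted p from 0.0768 to 0.342). With outlier spots kept ABA3 was at 0.19 in the full-length line (adjusted p = 0.266), and with the software's own log ratios it was at 0.54 in the truncated line. All 5 NCED genes of the list, which encode the cleavage enzyme of the pathway, were too dim to test.

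Among the 6 breakdown and conjugation genes, 1 rose and 2 fell in the truncated line, and 1 rose and 1 fell in the full-length line. At an unadjusted limma p under 0.05, in either direction, there were 5 in each line, against 30.9% and 33.3% of all features. CYP707A3, an ABA 8'-hydroxylase gene, fell in both, by 0.34 on the log2 scale in the truncated line and by 0.75 in the full-length line (limma adjusted p = 0.0302 and 0.00472). The call in the truncated line was lost without either of its arrays (-0.40, adjusted p = 0.0716, and -0.28, adjusted p = 0.195). CYP707A2, another hydroxylase gene, had -0.03 ± 0.00 in the truncated line and rose in the full-length line (0.60 ± 0.08, adjusted p = 0.00685). The difference between the lines was called (-0.63, adjusted p = 0.0343), though not without full-length replicate 2 (-0.58, adjusted p = 0.057). With outlier spots kept, the full-length values were -0.49 for CYP707A3 (adjusted p = 0.106; -1.15 with the software's own log ratios) and 0.39 for CYP707A2 (adjusted p = 0.142), and the CYP707A2 difference was -0.43 (adjusted p = 0.299).

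BGLU18, which frees ABA from its glucose ester, rose in the truncated line (0.49 ± 0.00, limma adjusted p = 0.0113) and had 0.15 ± 0.04 in the full-length line (adjusted p = 0.133). UGT71C5, which makes that ester, fell in the truncated line (-0.27 ± 0.04, adjusted p = 0.0479) and had 0.16 ± 0.07 in the full-length line. The UGT71C5 call was lost without either truncated array (-0.24 and -0.30; adjusted p = 0.297 and 0.172). Of 3 ABA transporter genes 0 were called by limma in either line. At an unadjusted limma p under 0.05 there were 1 (truncated) and 0 (full-length), against 30.9% and 33.3% of all features.

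The list of genes for receptor turnover and recruitment to membranes had 10 tested members. At an unadjusted limma p under 0.05 there were 4 (truncated) and 2 (full-length), against 30.9% and 33.3% of all features. After adjustment 1 fell in the truncated line, and 0 were called in the full-length line. The one that fell was AT5G37740 (-0.54 ± 0.08, limma adjusted p = 0.0166), at -0.30 in the full-length line (adjusted p = 0.0561). AT1G70790 had -0.37 in the truncated line and 0.33 in the full-length line (limma adjusted p = 0.0518 and 0.0647). Its difference of -0.70 between the lines was not called (adjusted p = 0.0557).

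Of 15 tested ABA-responsive target genes 3 rose, 1 fell and 11 were not called in the truncated line, with a median of 0.19. In the full-length line 3 rose, 0 fell and 12 were not called, with a median of 0.08. At an unadjusted limma p under 0.05, in either direction, there were 11 (truncated) and 12 (full-length), against 30.9% and 33.3% of all features. Of all features 7.09% were called as higher and 6.15% as lower in the truncated line, against 9.41% and 6.13% in the full-length line. Targets called in neither line included RAB18, at -0.23 in the truncated and -0.32 in the full-length line. RD29B (0.14 and -0.00) and RD22 (0.54 and -0.39) were also among them. RD20, a caleosin gene induced by drought and ABA, had 0.91 and 0.89 in the truncated line and 0.91 and 0.80 in the full-length line, a 1.87-fold and a 1.81-fold rise (limma adjusted p = 0.00342 and 0.00371). With outlier spots kept the full-length value of RD20 was 0.50 and was not called (adjusted p = 0.113). RD29A rose in the truncated line (0.52 ± 0.06, adjusted p = 0.0183), and LTI30, a dehydrin gene, fell there (-0.64 ± 0.17, adjusted p = 0.0127). ERD10 (0.32 ± 0.03, adjusted p = 0.0233) and ATHB12 (0.24 ± 0.02, adjusted p = 0.0466) rose in the full-length line, and both calls were lost without either full-length array (adjusted p from 0.105 to 0.294). With centring in place of loess ERD10 was at 0.08 and ATHB12 at 0.05 there (adjusted p = 0.955 and 0.976). COR15A rose in the truncated line (0.42, adjusted p = 0.0187), had -0.17 in the full-length line and differed between them (difference 0.60, adjusted p = 0.0401), a call lost without truncated replicate 1 (0.53, adjusted p = 0.0761) or either full-length array (0.59 and 0.60; adjusted p = 0.0522 and 0.0525).

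**Figure D5:**
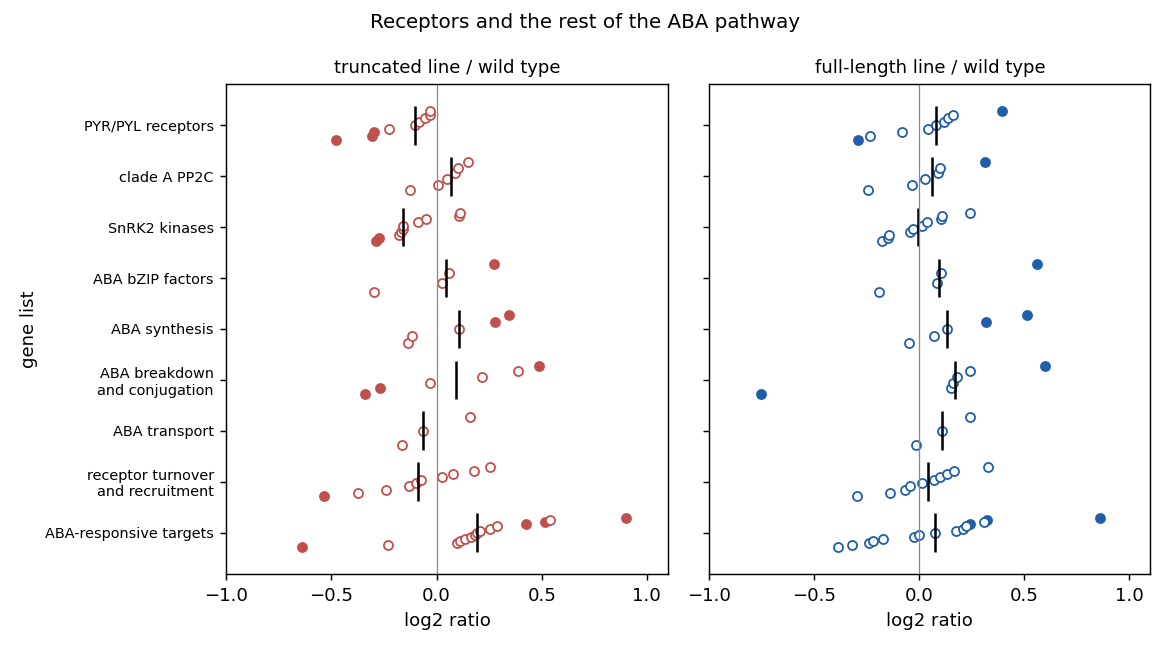
Mean log2 ratio over wild type (x axis) of the tested genes of each ABA list (y axis), truncated line in the left panel and full-length line in the right panel. Filled points are called (adjusted p under 0.05), open points are not, and vertical bars are list medians; the receptor median is -0.10 in the truncated and 0.08 in the full-length line (-0.22 and -0.08 with median centring in place of loess).

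Markers of the organs in a whole plant were read beside these genes, since receptor genes differ in where they are active. Leaf markers (6 of 6 tested) had 0 calls in the truncated line and 1 in the full-length line, PSAH2 (-0.51). At an unadjusted limma p under 0.05 there were 0 and 2. The leaf marker median was -0.04 in the truncated line and -0.21 in the full-length line. It changed sign between replicates 1 and 2 in each line (-0.43 and 0.17 truncated, -0.63 and 0.13 full-length), which limits what could be called. Root markers (8 of 8 tested) had a median of 0.06 with 0 calls in the truncated line. At an unadjusted limma p under 0.05 there were 2 root markers in the truncated and 6 in the full-length line. In the full-length line their median was -0.23, on both arrays (-0.30 and -0.26), and 2 fell, TIP2;3 (-0.76) and CASP1 (-0.45). Of 3 tested guard cell markers KAT1 rose in each line (0.39 and 0.29), while FAMA (0.10 and -0.05) and MYB60 (-0.17 and -0.21) were not called.

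The calls of KAT1 were lost without either array of a line (limma adjusted p from 0.0653 to 0.345), and those of PSAH2 and CASP1 without full-length replicate 1 (-0.41 each; adjusted p = 0.0686 and 0.0592). With centring PSAH2 was at -0.82 in the full-length line (adjusted p = 0.722). Of 4 flower markers PI alone passed the filter, at 0.86 in the truncated line (adjusted p = 0.00342) and 0.10 in the full-length line. Of 4 seed markers CRA1 alone passed, at -0.06 and 0.10 without a call. The part of these organ markers in the receptor values was not tested.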

How the data were processed

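Per the file headers, the authors scanned 4 two-colour Agilent arrays with Feature Extraction 10.7.3.1. The deposited files hold spot and background intensity per channel, the software's processed intensity, quality flags and log10 ratios of Cy5 over Cy3. The deposited value table holds log2 ratios, which followed line over wild type with slopes of 0.998 to 1.00. Here median intensities were used. Spots marked as outliers (20 to 50 gene spots per array) were removed first. Normexp (offset 50) and loess (control spots at weight 0) followed, then log2 line over wild type. The brightest probe stood for a gene. Features had to be well above background in 1 line on both its arrays or in wild type on all 4. Of 20341 features with a locus, 20143 matched the RefSeq name table of assembly TAIR10.1.

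Both lines were fitted together with limma 3.58.1 in R 4.3.3 (2 residual and 3.18 prior degrees of freedom), with Benjamini-Hochberg adjustment over 22442 features. Errors are SD over 2 arrays and include dye effects. Channel levels were scaled further by Aquantile. The fit was tested on data simulated with independent errors on each array, so shared deviations of same-numbered arrays were not part of that test. Members and gene lists were chosen with earlier results of these data known. All members were named, with up to 3 called genes of each list by size and the 2 genes most like each called member, of which 1 is not reported here. Alternatives were other background, scaling, filter, probe, block and array choices.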

Additional observations from a re-analysis of the deposited data

Results flagged for a closer look

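PYL6 differed between the lines by a test of the difference itself, at -0.69 for truncated minus full-length, with -0.30 in the truncated line and 0.40 in the full-length line. The same test set apart CYP707A2 (-0.63; -0.03 in the truncated and 0.60 in the full-length line), COR15A (0.60; 0.42 and -0.17) and the flower marker PI (0.77; 0.86 and 0.10). The wild type level of PYL5 had 1 channel apart from the other 3: the one beside truncated replicate 2 was at 11.55 and the others at 11.72 to 11.76. Its gap was 0.836 of the whole range, above Dixon's 95% critical value for 4 values, which chance passes in about 1 of 20 such groups.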

How the results depend on the processing

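Counts below are for the truncated line, the full-length line and their difference, in that order. As reported, 2972, 3486 and 698 genes were called, among them 3, 2 and 1 receptor genes. With a normexp offset of 10 the counts were 2164, 2916 and 313 genes and 1, 1 and 1 receptor genes. The software's own log ratios gave 2402, 3226 and 162 genes and the authors' deposited log2 values gave 2402, 3225 and 172, with 1, 1 and 0 receptor genes in each. Median centring without loess gave 41, 8 and 0 genes and 0, 0 and 0 receptor genes. With outlier spots kept there were 2668, 1018 and 367 genes and 2, 0 and 0 receptor genes. Without a filter on dim probes there were 704, 1033 and 86 genes and 0, 0 and 0 receptor genes. The mean of all probes gave 3223, 3841 and 798 genes and 3, 3 and 1 receptor genes. With the replicate number as a replicate block, 12169, 12747 and 8775 genes and 5, 6 and 6 receptor genes were called. Those gained were PYR1 and PYL9 in the truncated line, PYR1, PYL1, PYL4 and PYL5 in the full-length line, and PYR1, PYL1, PYL4, PYL5 and PYL8 in the difference (limma adjusted p of all these from 0.00149 to 0.0447). Same-numbered arrays share a dye orientation, the labels name no shared batch, and with 2 pairs the numbers were not taken as pairs (their deviations correlated at 0.78).

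Leaving out 1 array of the truncated line gave 1322 to 1624 genes and 0 to 1 receptor genes in that line. Leaving out 1 of the full-length line gave 1774 to 1819 genes and 0 receptor genes there. The difference gave 713 to 801 genes and 1 receptor gene, with each arm of 1 array assumed to vary like the other. Of 387 receptor values under the alternatives, 339 stayed on their side of the threshold, 36 lost the call and 12 gained it. No called value changed sign, and 12 of the 339, none of them called, did, 5 of these in the full-length line under median centring. All 30 named pathway and marker calls kept their sign, and 17 of them were lost without at least 1 array. Low signal over background left PYL10 to PYL13 and the NCED genes without a test.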

Other observations

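The brightest leaf genes changed sign with replicate number, and so with dye orientation, in both lines. RBCS1A, a Rubisco small subunit gene, had -0.60 and 0.55 in the truncated line and -0.71 and 0.36 in the full-length line on replicates 1 and 2. LHCB1.3, a light-harvesting gene, had -0.65 and 0.16 in the truncated line and -0.66 and 0.19 in the full-length line. Across 22442 features the log2 ratios of arrays with the same number but different lines correlated at 0.50 (replicate 1) and 0.48 (replicate 2), and those with different lines and numbers at 0.27 and 0.27. Arrays of the same line correlated at 0.70 (truncated) and 0.72 (full-length).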
